A study of Saccharomyces cerevisiae and Saccharomyces cerevisiae S288C with 30 samples.

Results

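Lariat-seq recorded 58 intron lariats of budding yeast, *Saccharomyces cerevisiae*, as pairs of a 5′ splice site and a branch point, and 3541 sequencing reads crossed the joints between them. All 58 sites of the deposited Lariat-seq summary were taken, out of 929 features measured in the study (these sites, 466 Branch-seq branch points and 405 RNA-seq events). The loop of each lariat was measured as the distance in bases from the 5′ splice site to the branch point. Loops ran from 66 to 383 bases with a median of 111 bases.

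In splicing, the spliceosome first joins the 5′ end of the intron to an adenosine near its 3′ end, the branch point, which leaves a looped RNA called a lariat with a tail up to the 3′ splice site. The debranching enzyme Dbr1 opens the loop, and the linear intron is then degraded. A reverse transcriptase that copies through the branch writes the start of the intron next to the bases before the branch point, and a read over that joint names both ends of the loop.

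The study made 30 libraries. For the 1 Lariat-seq library, cells of the reference strain S288C were harvested at OD600 0.94 to 0.98, total RNA was extracted with Trizol, lariats were cut out of a 2-dimensional gel, and they were copied with random primers. Their genotype is not given in the sources used here. Branch-seq used lariats isolated in the same way, in 3 gel fractions (top, middle, bottom) of 1 experiment that share a single column of values. RNA-seq comprised 26 libraries, 2 biological replicates in each of 13 groups. WT, upf1_null and dbr1_null cultures reached OD600 0.5 to 1 in YPD, and their libraries were made with the TruSeq kit and are marked poly(A) in the headers of the PSI table. All other groups were prepared with ribosomal RNA removed (Ribo-Zero): dbr1, +rap and -rap in S288c, sk1 in the strain SK1, and a sporulation series of SK1 at 0, 3, 6, 7.5, 8.5 and 12 h. The labels do not say what +rap and -rap stand for, nor how dbr1 relates to dbr1_null, and the construction of the mutants is not given in the sources used here.

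Reads were concentrated at a few loops. The loop with the most came from SNR17A, a gene of the U3 small nucleolar RNA that acts in ribosomal RNA processing (chromosome XV, 780121 to 780266 on sacCer3, which is the build of all coordinates here). It gave 735 reads (95% exact Poisson interval 683 to 790), or 20.8% of all reads. YOP1, which shapes tubules of the endoplasmic reticulum (XVI, 623578 to 623666), gave 550 reads (505 to 598). HNT1, a nucleotide hydrolase (IV, 239509 to 239421, minus strand), gave 366 reads (329 to 405). These 3 intervals do not overlap. MRPL44, a protein of the mitochondrial ribosome (XIII, 721345 to 721232), gave 313 reads (279 to 350), and SEC14, a phospholipid transfer protein of the Golgi (XIII, 424998 to 425115), gave 267 reads (236 to 301). Their intervals overlap each other. The 5 loops together held 63.0% of reads, and the 12 with the most held 82.8%. The median site had 11.5 reads, and PTC7, a phosphatase gene, had the fewest, 1 read. With 1 library there is no replicate, and the intervals cover counting error only, since copies made in amplification cannot be told from separate molecules.

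**Figure D1:**
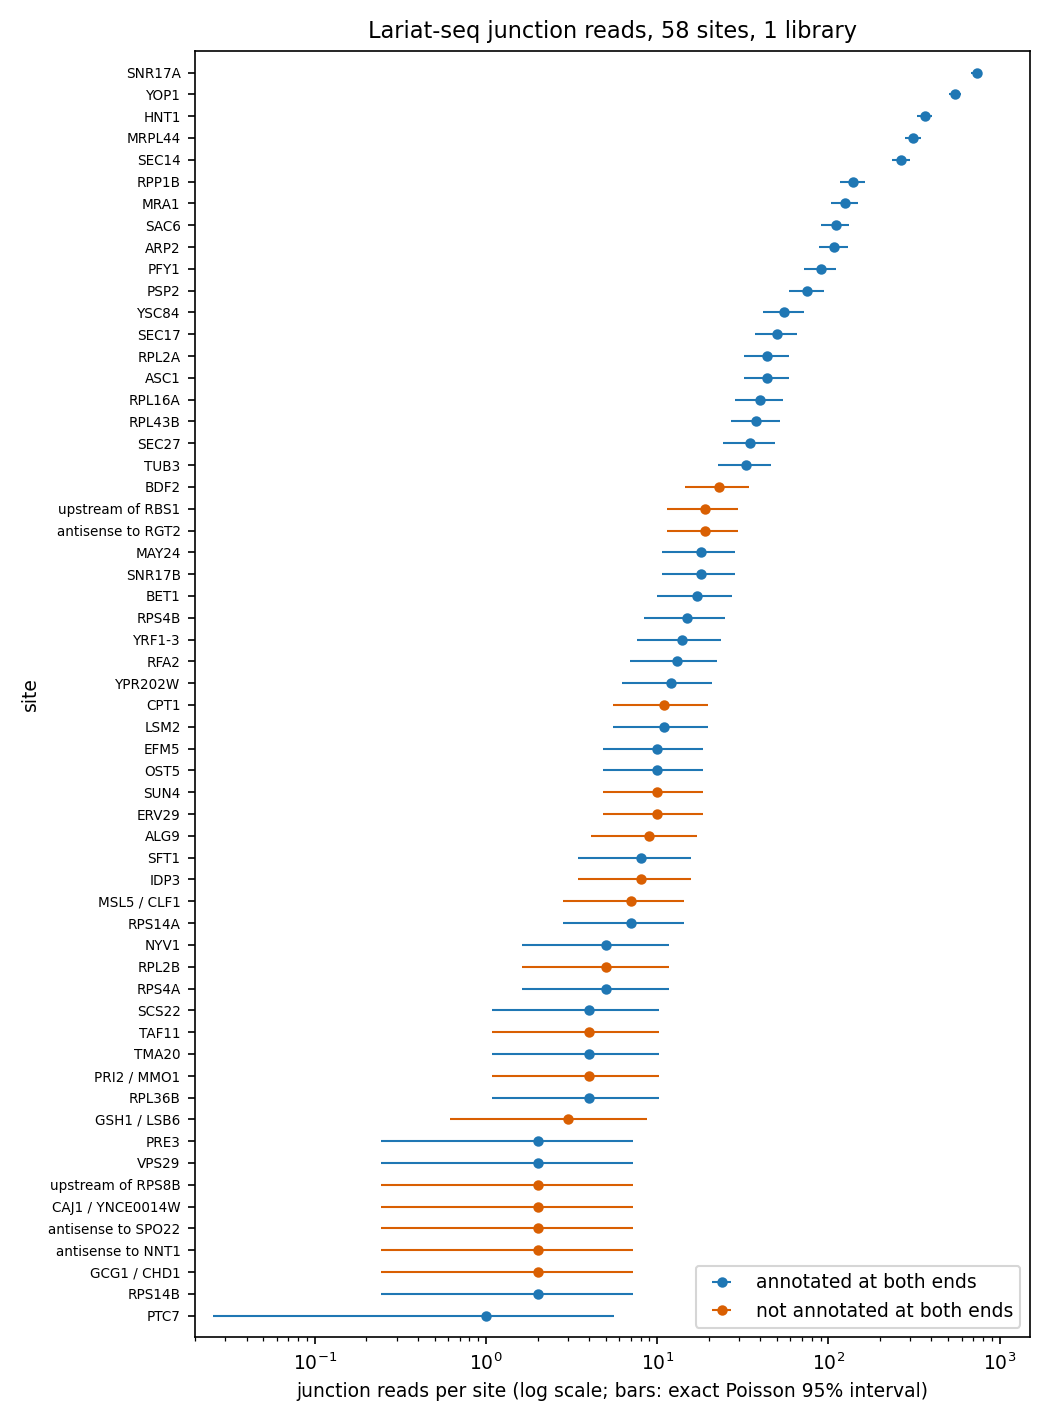
Junction reads at each of the 58 Lariat-seq sites on a log axis, with exact Poisson 95% intervals; blue sites are annotated at both ends and orange sites are not. Reads fall from 735 at SNR17A to 1 at PTC7, and no orange site exceeds the 23 reads of BDF2.

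The remaining loops among the 12 with the most reads came from several kinds of gene. RPP1B, a protein of the ribosomal stalk, had 139 reads over a loop of 243 bases (IV, 230020 to 230263). MRA1 had 125 reads over 131 bases (XVI, 582701 to 582570). SAC6, the actin bundler fimbrin, had 110 reads over 91 bases (IV, 715358 to 715267), and ARP2, of the actin-nucleating Arp2/3 complex, had 108 over 109 bases (IV, 399362 to 399471). PFY1, profilin, had 90 reads over 136 bases (XV, 552874 to 552738). PSP2, an RNA-binding protein, had 75 reads over 197 bases (XIII, 236592 to 236789), and YSC84, an actin-binding protein of endocytosis, had 55 over 127 bases (VIII, 138408 to 138281). The intervals of RPP1B, MRA1, SAC6 and ARP2 overlap, so their order is not resolved at this depth.

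By function, 10 sites lay in ribosomal protein genes and held 299 reads. Of the 91 annotated introns in this class, 9 were seen (9.89%), against 39 of all 279 annotated introns in the RNA-seq table (14.0%). Cytoskeleton genes gave 4 sites in 9 introns (SAC6, ARP2, PFY1 and TUB3, an alpha-tubulin) with 341 reads. Genes of the secretory pathway and vacuole gave 6 sites in 17 introns with 379 reads, of which SEC14 gave 267. The others there were SEC17 (50 reads), SEC27 of the COPI coat (35), BET1 (17) and SFT1 (8), both SNARE proteins of membrane fusion, and VPS29 of the retromer (2). RNA processing genes gave 2 sites in 11 annotated introns, PSP2 and LSM2, beside SNR17A and SNR17B (18 reads), whose introns are not in the RNA-seq table. Of the mitochondrial introns 1 in 5 was seen (MRPL44), of the translation introns 1 in 3 (ASC1, 44 reads), and of the ubiquitin and proteasome introns 1 in 8 (PRE3, 2 reads). Some sites lie in paired gene copies, whose loops differ in length. They measured 173 bases in RPS4A and 227 in RPS4B, and 257 in RPS14A and 383 in RPS14B. RPL2A had 111 and RPL2B 121 bases, and SNR17A 145 and SNR17B 117. Whether such copies share reads was not tested. The loops of YRF1-3 (14 reads) and YPR202W (12 reads) both measured 124 bases with 23 more to the 3′ splice site, and they lie in subtelomeric repeats whose copies may share reads.

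Lariat-seq sites were found mostly in introns of intermediate length. The 39 annotated introns with a site had a median length of 147 bases, and the other 240 had 136.5 bases with quartiles at 87 and 401. A site was found in 4 of 101 introns of 100 bases or fewer, or 3.96% (95% Clopper-Pearson interval 1.09% to 9.83%). Of introns of 101 to 150 bases 20 of 47 had one (42.6%, 28.3% to 57.8%). Of introns of 151 to 300 bases 11 of 24 had one (45.8%, 25.6% to 67.2%). The share was 3 of 44 for 301 to 400 bases (6.82%, 1.43% to 18.7%) and 1 of 63 for longer introns (1.59%, 0.0402% to 8.53%). The intervals of the 2 middle classes lie wholly above those of the others. The class limits were chosen after the values had been seen. Of ribosomal protein introns 5 of 6 were seen at 151 to 300 bases, 2 of 32 at 301 to 400 and 1 of 52 above that. Among introns of other genes the shares in the 5 classes, from short to long, were 4 of 101, 19 of 46, 6 of 18, 1 of 12 and 0 of 11.

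**Figure D2:**
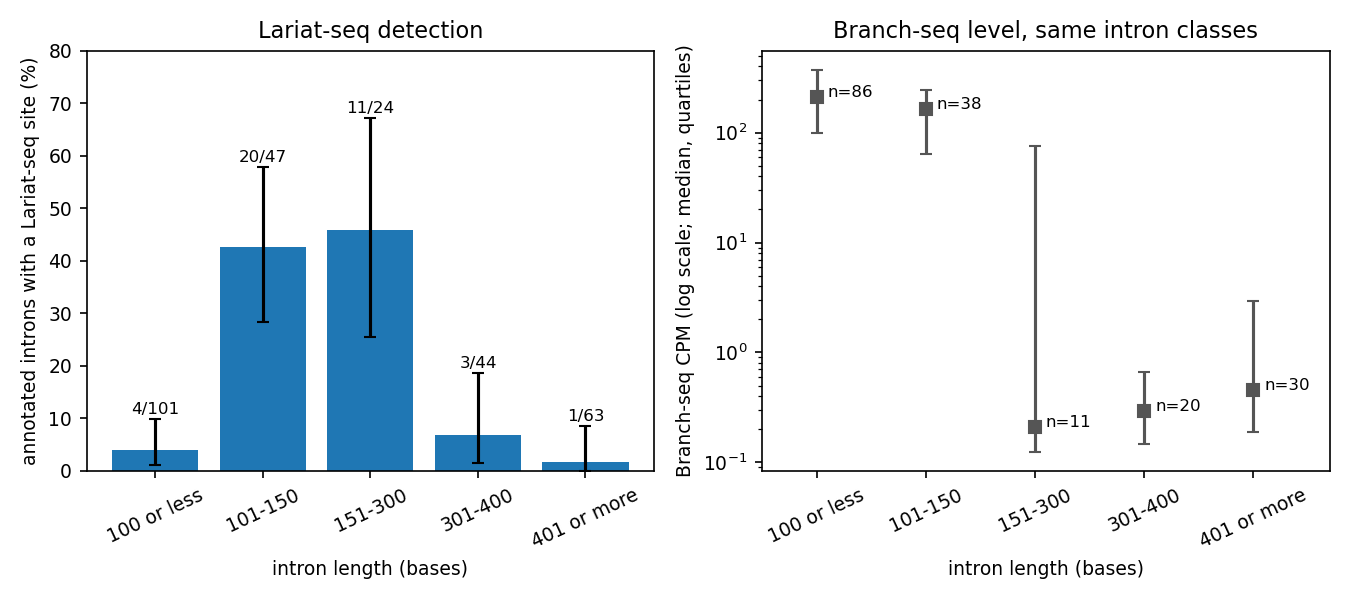
Left, the percent of annotated introns with a Lariat-seq site in 5 classes of intron length, with 95% Clopper-Pearson intervals and counts above the bars; right, the median Branch-seq CPM with quartiles (log axis) over introns of the same classes whose gene has 1 intron and 1 annotated Branch-seq entry. Lariat-seq found 42.6% and 45.8% of introns in the classes from 101 to 300 bases and under 7% elsewhere, while the Branch-seq median was 212 CPM in the shortest class and under 1 CPM in each class above 150 bases. The 11 introns of 151 to 300 bases at right are 6 with a Lariat-seq site (median 0.167 CPM) and 5 without (median 151 CPM).

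The shortest loops were those of EFM5, a protein methyltransferase gene (66 bases, 10 reads), SCS22 (72 bases, 4 reads), PTC7 (75 bases, 1 read) and SFT1 (76 bases, 8 reads). The longest were those of RPS14B (383 bases, 2 reads), RPS14A (257 bases, 7 reads), ASC1 (252 bases, 44 reads) and RPP1B (243 bases, 139 reads), which encode ribosomal proteins or, for ASC1, a protein bound to the small ribosomal subunit. All 8 are annotated at both ends. Annotated loops of ribosomal protein genes had a median of 232 bases (9 loops) and those of other genes 105 bases (31 loops). Loop length and read number showed little relation across the 28 annotated loops that also have a single Branch-seq value (Spearman rho = 0.184), which share 1 library.

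The tail could be measured at 40 sites where 1 intron of the RNA-seq table starts at the same 5′ splice site. From the branch point to the end of the intron the median was 34 bases, with quartiles at 22 and 46.75. The shortest tails were 11 bases, at MRA1 and at CPT1, a gene of phosphatidylcholine synthesis. The longest were 182 bases at IDP3, 164 at PSP2 and 139 at TUB3. PSP2 and TUB3 thus have introns of 362 and 298 bases with loops of only 197 and 158 bases.

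At 22 of the 58 sites the reads did not all end at the same base. The deposited list gives reads by their distance from the most downstream end. Of the 2778 reads at these sites, 2338 (84.2%) stood at the last listed position, the most upstream. At SNR17A the list reads 100, 27 and 608 reads at 3 adjacent bases, at YOP1 30, 39 and 481, and at HNT1 4, 9 and 353. The last position held the most reads at 19 of the 22 sites, the farthest downstream held the most at RPL2A, and at SCS22 and IDP3 the 2 positions held the same number. The positions lay within 2 bases at 18 sites. At the other 4 they lay further apart: MRA1 had 56 reads at one end and 10 and 59 at 11 and 12 bases from it, RPL2A had 36 and 8 reads 9 bases apart, ARP2 had 3 reads 6 bases from the main 100, and YPR202W had 5 and 6 reads 4 bases apart. The file does not say which entry of the list its branch point column refers to. At MRA1 the tail is 11 bases, so a listed end 12 bases downstream of that branch point would fall outside the intron. Counting the position with the most reads instead moved the median loop to 110.5 bases. That value takes the branch point column as the entry farthest downstream.

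**Figure D3:**
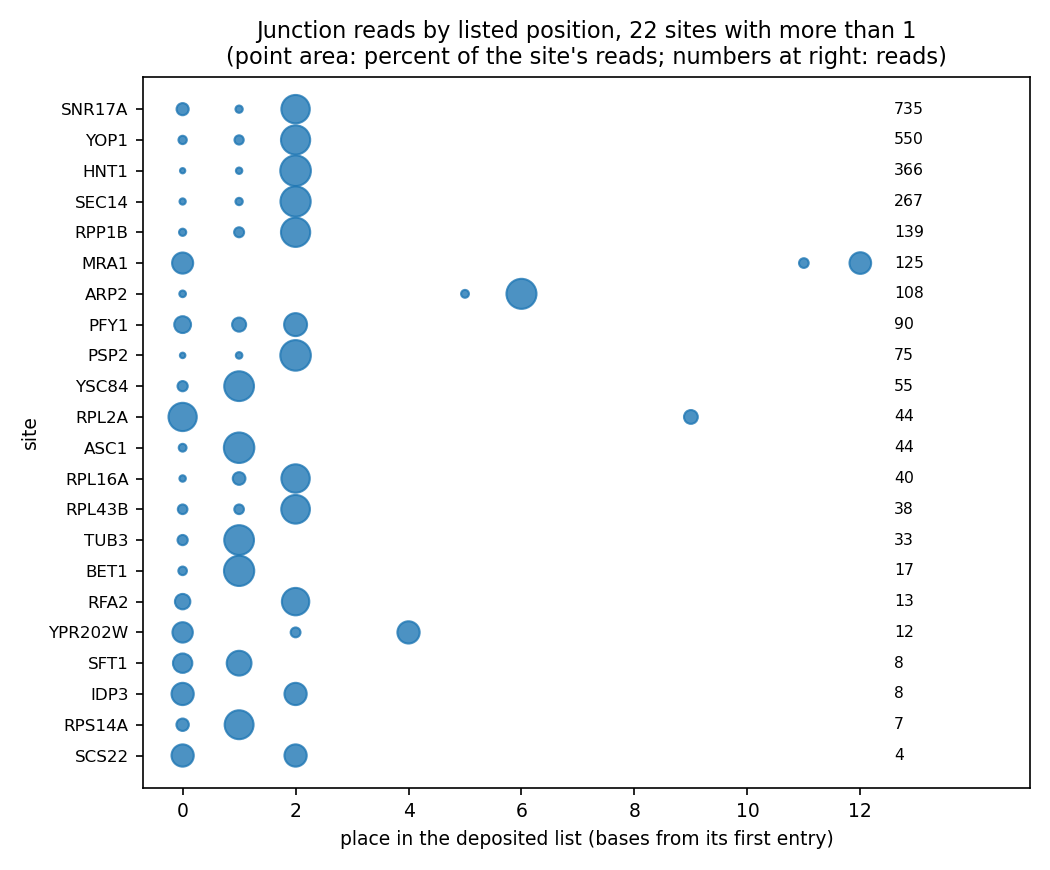
Place of the junction reads in the deposited list for the 22 sites with more than 1 position, in bases from the entry farthest downstream; point area is the percent of the site's reads, and the number at the right is its reads. In 18 of the sites the positions lie within 2 bases, and MRA1, RPL2A, ARP2 and YPR202W span 12, 9, 6 and 4 bases.

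Most loops were annotated. At 40 sites both ends were, 69.0% of sites (95% Clopper-Pearson interval 55.5% to 80.5%) with 96.0% of reads. At 3 sites only the 5′ splice site was annotated (32 reads), at 1 only the branch point (5 reads), and at 14 neither end (105 reads). The 18 sites not annotated at both ends had 2 to 23 reads each, and 8 of them had fewer than 5. Their loops had a median of 109 bases, and 16 of the 18 measured between 80 and 130 bases.

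Among these, 6 loops lay inside a gene and 2 partly inside. BDF2, which encodes a bromodomain protein and whose mRNA is known as a target of spliceosome-mediated decay, had 23 reads over 89 bases (IV, 331189 to 331278), and the gene has an unannotated Branch-seq entry of 31.9 CPM. SUN4, a cell wall gene, had 10 reads over 104 bases (XIV, 502164 to 502268). ERV29, a cargo receptor of the early secretory pathway, had 10 reads over 203 bases (VII, 1061028 to 1060825), the longest unannotated loop. ALG9, a mannosyltransferase gene, had 9 reads over 110 bases (XIV, 237531 to 237421). None of SUN4, ERV29 and ALG9 has a Branch-seq entry by gene name. At CPT1 an annotated 5′ splice site led to an unannotated branch point 80 bases on, with 11 reads (XIV, 380781 to 380701). Its gene has 537 CPM at an annotated and 16.6 CPM at an unannotated Branch-seq entry.

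RPL2B, a ribosomal protein gene, was the lone site with an unannotated 5′ splice site and an annotated branch point, with 5 reads (IX, 317018 to 317139). Its 5′ end lay 246 bases inside the annotated intron of 400 bases, so the loop measured 121 bases where the annotated 5′ splice site would give 367 bases. The partly genic loops were those of IDP3, a peroxisomal dehydrogenase gene (8 reads over 163 bases, XIV, 616067 to 616230), and TAF11, of the transcription factor TFIID (4 reads over 85 bases, XIII, 243056 to 242971). The IDP3 loop starts at the 5′ splice site of an unannotated intron in the RNA-seq table, and TAF11 has an unannotated Branch-seq entry of 0.501 CPM.

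Outside genes, 7 loops lay between neighbours and 3 lay opposite to a gene. The loop with 19 reads upstream of RBS1, a gene of RNA polymerase III assembly, ended 56 bases before the gene (IV, 122078 to 122160). Its 5′ splice site is shared by 3 unannotated introns of the RNA-seq table, whose 3′ splice sites lie 7, 26 and 34 bases past the branch point. The other annotated 5′ splice site outside a gene lay upstream of RPS8B, with 2 reads and a branch point 264 bases before that gene (V, 362733 to 362836). Loops between MSL5 and CLF1 (7 reads), PRI2 and MMO1 (4), GSH1 and LSB6 (3), CAJ1 and YNCE0014W (2) and GCG1 and CHD1 (2) had neither end annotated. The 3 opposite to a gene were at RGT2, a glucose sensor (19 reads over 110 bases, IV, 215384 to 215274), SPO22, of meiotic chromosome synapsis (2 reads, IX, 225875 to 225995), and NNT1 (2 reads, XII, 707892 to 707771). The library protocol keeps strand. At 2 reads the Poisson interval runs from 0.242 to 7.22 reads, so these sites are at the edge of what the library could show.

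Branch-seq, which opens the lariats and reads the freed branch point, was compared by gene name, since its coordinates are on another build. Of the 58 sites 34 had their gene in a Branch-seq table. The 7 sites between genes and the 3 opposite to a gene were not looked up and count as unmatched. A shared gene need not mean a shared branch point: 8 sites annotated at both ends have their gene in the unannotated table. Read in the other direction, Lariat-seq had a site in 31 of the 192 genes of the annotated table (16.1%) and in 11 of the 149 of the unannotated table (7.38%). At 28 annotated sites with a single annotated Branch-seq entry, reads and CPM showed little relation (Spearman rho = -0.138), and loop length and CPM a strong negative one (rho = -0.766). Both are descriptions over 28 genes, each from 1 experiment. HNT1 with 366 reads had 415 CPM and YOP1 with 550 reads had 391 CPM, the highest of the 28, both over loops of 88 bases. MRPL44 with 313 reads over 113 bases had 1.46 CPM. SEC14, with 267 reads over 117 bases, RPP1B, with 139 reads over 243 bases, and YSC84 had 0.0834 CPM each, the lowest value in the annotated table.

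The change lay near a loop of 110 bases, a limit chosen after the values had been seen. At 16 sites of 109 bases or fewer CPM ran from 10.4 to 415 with a median of 102. At 12 sites of 110 bases or more it ran from 0.0834 to 31.3 with a median of 0.355, and apart from RPS14B with 31.3 CPM it did not exceed 3.00 CPM. The groups overlap by RPS14B alone. Lariat-seq reads had a median of 10.5 in the shorter and 41 in the longer loops, with 1262 reads and a highest site of 550 in the shorter against 935 and 313 in the longer. All 17 annotated loops of 109 bases or fewer had an annotated Branch-seq entry for their gene, and 11 of the 23 longer ones had none. Introns without a Lariat-seq site also had low CPM in the longest classes of intron length. Their median was 217 CPM at 100 bases or fewer, 180 CPM at 101 to 150, and 0.292 and 0.417 CPM in the 2 longest classes. At 151 to 300 bases introns with and without a site differed. The median was 151 CPM over 5 introns without a site (quartiles 0.709 and 1390) and 0.167 CPM over 6 with one. The highest member values by gene were the 537 CPM of CPT1, 477 CPM at one of 2 annotated entries of EFM5, and 415 CPM of HNT1.

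**Figure D4:**
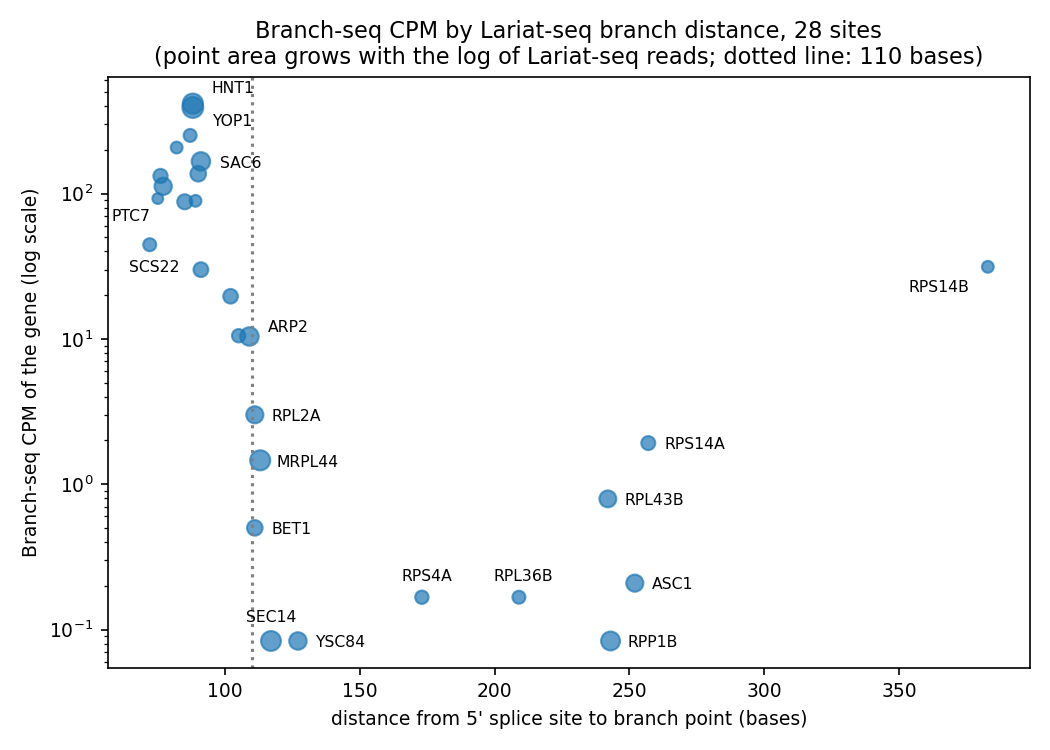
Branch-seq CPM of the gene (log axis) against the Lariat-seq loop distance in bases for 28 annotated sites with 1 annotated Branch-seq entry; point area grows with the log of Lariat-seq reads and the dotted line marks 110 bases. The 16 shorter loops lie at 10.4 CPM or above, and of the 12 longer ones only RPS14B lies above 3.00 CPM.

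RNA-seq gave PSI for 43 introns that start at a Lariat-seq 5′ splice site, 39 of them annotated. PSI is a fraction that the sources used here do not define. It is read here as the fraction of RNA that holds the intron, a reading that was not tested. The read numbers behind it are not given, so its depth is unknown. Differences were tested with limma on log2((PSI + 0.01)/(1 − PSI + 0.01)), two-sided, at a Benjamini-Hochberg adjusted p under 0.05 over all introns tested. Whether reads of excised loops enter PSI is not given in the sources used here, and the values used here do not include the level of DBR1 itself.

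In the TruSeq libraries, dbr1_null against WT, 1 of the 43 members was higher and none lower. Over all 377 introns tested 2.39% were higher and 0.265% lower (3.52% and 0.391% of annotated introns). An unadjusted limma p under 0.05 was found for 10 of the 43 members and for 78 of all 377 introns. The member was RPS14A, with 0.06 in both dbr1_null libraries and 0.03 in both WT libraries (difference 0.85 log2 odds, SE 0.02, limma adjusted p = 0.00174). These values sit near the floor of a scale given in steps of 0.01, and the call ended when introns of mean PSI under 0.05 or over 0.95 were left out (adjusted p = 0.0689). The median difference was 0.035 over members and 0.02 over all introns tested. RPS4A had 0.09 and 0.49 in dbr1_null against 0.04 in both WT libraries, and RPS4B 0.07 and 0.43 against 0.03 and 0.02, so that 1 dbr1_null library carried most of each difference (adjusted p = 0.338 and 0.306). PSP2 had 0.49 and 0.86 against 0.18 and 0.55 (adjusted p = 0.449), with overlapping groups. YOP1 had 0.10 in all 4 libraries. Without dbr1_null replicate 1 the count of members higher was 6, and without either WT library it was 2.

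In the Ribo-Zero libraries dbr1 was set against -rap, also S288c, because the labels name no control, so genotype and culture cannot be told apart. Of 38 members tested, 15 were higher and 1 lower, where 43.3% of all 319 introns tested were higher and 0.94% lower. Over annotated introns alone the shares were 58% higher and 0.488% lower, and 14 of 34 annotated members were higher. The member with the greatest rise was RPS14A, with 1.00 in both dbr1 libraries and 0.03 and 0.04 in -rap (difference 11.10 log2 odds, SE 0.70, adjusted p = 8.8e-08). ASC1 had 1.00 in both against 0.07 in both (10.21 log2 odds, SE 0.51, adjusted p = 1.45e-08). RPS4A had 0.98 and 1.00 against 0.06 and 0.09 (adjusted p = 3.47e-06), RPS4B 0.96 in both against 0.05 and 0.07 (adjusted p = 3.83e-07), and RPL43B 1.00 in both against 0.09 and 0.13 (adjusted p = 2.39e-07). In these 5 introns the groups are separated by over 0.8 of the PSI scale. Of 38 annotated members with a value in both dbr1 libraries 10 had a mean PSI of 0.95 or more, against 0 of 39 in dbr1_null and 2 of 34 in -rap. High values in dbr1 were not particular to members. The median PSI there was 0.605 over the 38 members and 0.93 over 199 other annotated introns.

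By gene group, 8 of 9 ribosomal protein members were higher, with a median difference of 0.88. The other, RPL2A, has the shortest loop of them at 111 bases, and had 0.09 and 0.07 against 0.06 and 0.13 (adjusted p = 0.96). The rise was not particular to these members. Of annotated introns without a site 105 of 171 were higher. Their median difference was 0.845 over 41 introns of 301 to 400 bases and 0.863 over 62 longer ones, where most introns lie in ribosomal protein genes. Of the cytoskeleton members 2 of 4 were higher: TUB3 had 0.86 and 0.93 against 0.08 and 0.12 (adjusted p = 3e-07), and PFY1 0.42 and 0.73 against 0.08 and 0.09 (adjusted p = 5.37e-06). SAC6, with 0.17 in both against 0.12 and 0.11, and ARP2, with 0.43 and 0.37 against 0.48 and 0.64, were not past the threshold (adjusted p = 0.235 and 0.114). Of 5 secretory and vacuole members SEC27 was higher, with 0.39 and 0.52 against 0.16 and 0.14 (adjusted p = 0.000705), and BET1 lower, with 0.28 and 0.24 against 0.40 and 0.37 (adjusted p = 0.0363). Of the 2 RNA processing members PSP2 was higher, with 0.59 and 0.68 against 0.14 and 0.13 (adjusted p = 3.12e-06). The remaining members that were higher were RPS14B, RPL36B, RPL16A, RPP1B, YRF1-3 and the unannotated intron of IDP3, by 0.03 to 0.88 in PSI. The calls of BET1, YRF1-3 and IDP3 did not hold when single libraries were left out, nor under some other settings. BET1 was also lost with robust moderation and without introns of mean PSI under 0.05 or over 0.95, and YRF1-3 with untransformed PSI. IDP3, with a mean of 0.98 against 0.95, was lost in 7 of 11 alternatives, among them untransformed PSI and an offset of 0.05.

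Of the 12 sites with the most Lariat-seq reads 10 had a tested intron, and 3 of them rose, RPP1B, PFY1 and PSP2, with loops of 243, 136 and 197 bases. Beside these, 43.3% of all introns tested and 58% of annotated ones were higher. RPP1B had 0.89 and 0.85 in dbr1 against 0.04 and 0.05 in -rap (adjusted p = 1.19e-06). The other 7, SAC6 and ARP2 among them, did not pass. HNT1 had 0.19 and 0.17 in dbr1 against 0.18 and 0.15 in -rap (adjusted p = 0.806). MRPL44 had 0.32 and 0.31 against 0.25 and 0.40 (adjusted p = 1), and SEC14 0.13 in both against 0.14 and 0.07 (adjusted p = 0.58). YOP1 had 0.25 and 0.27 against 0.14 and 0.10, separate groups that did not pass over all introns (adjusted p = 0.0856). MRA1 had 0.92 and 0.84 against 0.88 and 0.94 (adjusted p = 0.676).

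The members that were higher had longer loops. Of annotated members with loops under 110 bases 0 of 14 were higher (median difference 0.0475), from 110 to 149 bases 3 of 9 were higher and 1 lower (median 0.01), and from 150 bases on 11 of 11 were higher (median 0.88). The 15 members that were higher had loops of 124 to 383 bases, and the other 23 had loops of 66 to 131 bases. The correlation of loop length and PSI difference across the 34 annotated members was rho = 0.676, and in TruSeq it was 0.284 across 39. These points share their libraries, and the length classes were chosen after the values had been seen. Annotated introns without a site also differed by length, with a median difference of 0.0075 over 42 introns of 100 bases or fewer, 0.845 over 41 of 301 to 400 bases and 0.863 over 62 longer ones. Most long introns lie in ribosomal protein genes: outside that class and without a Lariat-seq site, the medians were 0.485 over 11 introns of 301 to 400 bases and 0.225 over 11 longer ones. At 151 to 300 bases the 10 members had a median difference of 0.863, and 10 introns without a site 0.045. Without ribosomal protein introns these medians were 0.49 over 5 members and 0.04 over 9 introns without a site. In -rap the median PSI was 0.0975 over the 10 members and 0.43 over the 10 other introns. Whether starting level or gene class bears on the gap was not tested.

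**Figure D5:**
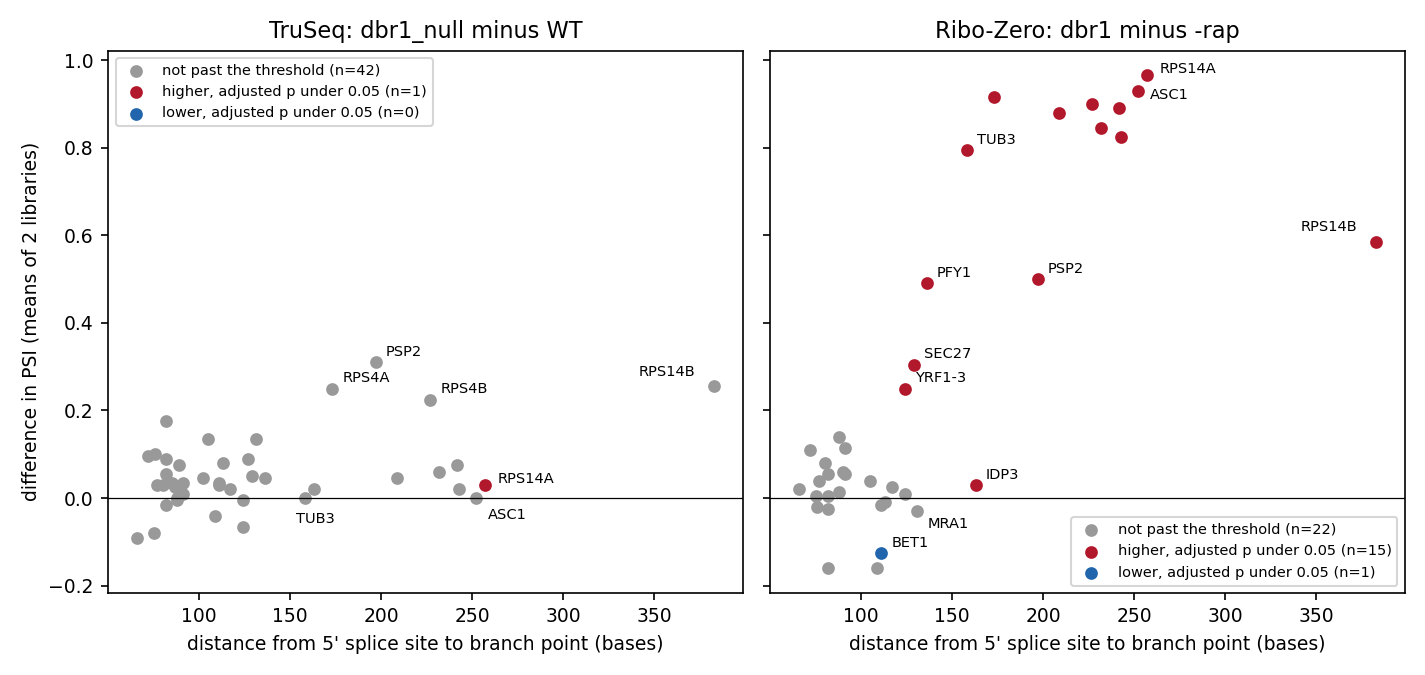
Difference in PSI between means of 2 libraries against Lariat-seq loop distance in bases, for dbr1_null minus WT in TruSeq (left, 43 introns) and dbr1 minus -rap in Ribo-Zero (right, 38 introns); red points were higher and the blue point lower at a limma adjusted p under 0.05. On the right the 15 red points start at a loop of 124 bases and reach 0.965 at RPS14A, and on the left RPS14A alone is red.

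The difference of the 2 contrasts, dbr1 minus -rap less dbr1_null minus WT, was tested in 1 fit over all 26 libraries. Of 38 members 12 were higher in Ribo-Zero and 2 lower, where 36.7% of all introns tested (50.2% of annotated ones) were higher and 0.94% (0.488%) lower. All 12 are annotated introns with loops of 129 to 383 bases, and 8 are ribosomal protein introns. ASC1 showed no TruSeq difference (0.08 in both dbr1_null libraries against 0.09 and 0.07 in WT) beside its Ribo-Zero rise (difference of contrasts 10.20 log2 odds, SE 0.64, adjusted p = 8.91e-09). TUB3 had 0.06 and 0.11 against 0.05 and 0.12 in TruSeq (difference of contrasts 6.06 log2 odds, SE 0.78, adjusted p = 4.69e-06). RNA selection (poly(A) per the table's headers, or removal of ribosomal RNA), kit, sequencing instrument and control culture differ together between the 2 sets and cannot be told apart.

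Across all 13 groups the median PSI of the annotated members with both values lay between 0.155 in -rap (34 introns) and 0.275 in +rap (33 introns), apart from 0.405 after 12 h in sporulation medium (30 introns) and 0.605 in dbr1 (38 introns). The other annotated introns had medians of 0.4475 at 12 h (182 introns) and 0.93 in dbr1 (199 introns). These are levels with no test, and the introns measured differ between groups, with 16 members at 8.5 h. HNT1 had 0.67 and 0.71 at 12 h, and its other 12 groups had means of 0.08 to 0.26. BET1 had 0.74 and 0.81 at 12 h, against means of 0.20 to 0.545 in the 10 other groups with values. MRA1 had 0.07 and 0.08 at 0 h in SK1, 0.88 and 0.94 in -rap in S288c, and a mean of 0.475 in WT. Strain and culture differ together between 0 h and -rap. RPS14B had 0.75 and 0.91 in +rap beside 0.28 and 0.50 in -rap.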

How the data were processed

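Per the submitters' processing notes, Lariat-seq reads were aligned with Bowtie 1.0.0 to sacCer3 and Branch-seq to sacCer2. The deposited Lariat-seq table lists counts of junction reads per listed position, which were summed per site. Branch-seq was deposited as CPM over 3 pooled fractions and matched by gene name. PSI, deposited as a fraction with 2 decimals on sacCer3, was matched by 5′ splice site. Genes were placed with RefSeq R64.

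PSI was fitted with limma 3.58.1 in R 4.3.3, a mean per group, for introns with all values of the compared groups. The fits were separate for each preparation, except that the difference of contrasts was fitted over all RNA-seq libraries together. All fits were tested on simulated data. Named were the 12 sites with most reads, all sites not annotated at both ends, the 4 shortest and 4 longest loops, the 5 greatest called PSI changes in each direction, and the 3 highest CPM. The top Lariat-seq introns in PSI, RPL2A, RPS4A, RPS4B and PSP2 in TruSeq, and the levels over 13 groups were chosen after their values were seen. The members and lists were chosen with earlier results of these data known. No genome was used, so no sequence or motif is given. The planned Branch-seq match by distance was not run, since that table gives no 5′ splice site.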

Additional observations from a re-analysis of the deposited data

Results flagged for a closer look

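For 14 member introns the dbr1 contrast differed between the Ribo-Zero and TruSeq preparations in the test of that difference (limma, 26 libraries, adjusted p under 0.05). Values are the Ribo-Zero minus the TruSeq contrast in log2 odds of PSI. They were 10.25 for RPS14A, 10.20 for ASC1, 8.22 for RPL43B, 8.12 for RPL16A, 7.09 for RPL36B, 6.68 for RPS4A, 6.47 for RPP1B, 6.06 for TUB3, 5.20 for RPS4B, 3.93 for RPS14B, 3.25 for PFY1 and 1.59 for SEC27. RPS14A, ASC1, RPL43B and RPL16A had a PSI of 1.00 in both dbr1 libraries. There the offset of 0.01 bounds the log2 odds, so their sizes and order depend on it. BET1 had -1.10, and the RBS1 upstream intron ending 7 bases past the branch point had -3.04, with 0.80 and 0.69 in dbr1 against 0.88 and 0.93 in -rap, and 0.89 and 0.97 in dbr1_null against 0.87 and 0.81 in WT. The calls of SEC27, BET1 and RBS1 were lost when single libraries were left out, with adjusted p up to 0.199, 0.0939 and 0.136, and that of RPS14B with untransformed PSI (adjusted p = 0.092). The other 10 passed in every alternative that could test them. RNA selection, kit, sequencing instrument and control culture all differ between the contrasts, and their parts in these results cannot be told apart.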

How the results depend on the processing

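The share of reads at the 5 sites with the most was 63.0%, 58.3% without SNR17A (chosen after seeing the data) and 16.3% when each listed position counted once. The share of sites annotated at both ends, 69.0%, became 96.0% as a share of reads. Of sites 58.6% had their gene in a Branch-seq table, where sites outside genes were not looked up and count as unmatched. Of annotated branch points 73.2% had theirs in the annotated table (chosen after seeing the data). The other settings for loops, tails and listed positions moved no value outside its 95% interval, and merging neighbouring branch points left all 58 sites. Members called numbered 1 in dbr1_null against WT, 0 without introns of mean PSI under 0.05 or over 0.95, and 1 to 6 with 1 library left out. For dbr1 against -rap the 16 became 4 of 11 tested when introns needed a value in every library, and 13 to 15 with 1 library left out. For the difference of contrasts the 14 became 3 of 11 tested, and 11 to 15. In both cases fewer introns were tested. With 1 library left out, the lone library is assumed to vary like the other groups. Of the 16, 13 passed in every alternative that could test them, and of the 14, 10. Same-numbered replicates share only a number (correlation of deviations 0.311 in WT and dbr1_null, -0.132 in -rap and dbr1). With the replicate block the counts were 1, 16 and 14, and with crossed numbers in the dbr1 comparison 16. The motif settings and the Branch-seq match by distance were not run. Low counts limit the 15 sites under 5 reads.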
